A study of Mus musculus with 14 samples.

Results

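The genes described here encode the proteins of the cytosolic ribosome, and 64 of the 22180 genes measured with a single gene symbol belong to them, on 104 of 33793 probe sets. They were chosen by symbol alone: Rpl or Rps with a number and an optional a, l or x, together with Rplp0, Rplp1, Rplp2 and Rpsa, without pseudogene symbols ending in -ps and without the S6 kinases. By role, 32 belong to the large subunit, 22 to the small subunit and 3 to the stalk of the large subunit, and 7 are additional paralogs with a symbol ending in l. Of these genes 40 had 1 probe set and 24 had several, which were averaged. RNA came from male mice, 12 weeks old, on a Western type diet for 4 weeks from the age of 8 weeks. One genotype was ApoE/LTbR-double deficient (double-deficient below): besides apolipoprotein E it lacked LTbR, the lymphotoxin beta receptor. The control genotype, littermates labelled WT in the titles, lacked apolipoprotein E alone (ApoE-deficient), so ApoE deficiency and the diet were common to all 4 groups, and no group had normal ApoE or another diet. The aorta was taken with its perivascular fat from 4 double-deficient and 4 ApoE-deficient samples. Cells carrying CD115, the receptor of macrophage colony-stimulating factor, were isolated from blood with magnetic beads, in 3 double-deficient and 3 ApoE-deficient preparations. ApoE-deficient preparations 3 and 4 were each pooled from 2 littermates. The labels do not state that each single sample was 1 mouse, so p-values measure the spread between these samples. Values are signals read as log2, after each probe set was centred on its own median within a tissue. Levels between genes and between tissues were therefore lost, and the labelled tissue could not be checked against the level of its marker genes. A difference is the double-deficient mean minus the ApoE-deficient mean on the log2 scale, and the number of arrays limits its precision.

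Ribosomes are built from ribosomal RNA and a large set of ribosomal proteins, which assemble with it in the nucleolus into a small subunit that reads the messenger RNA and a large subunit that joins amino acids. Messenger RNAs of these proteins begin with a run of pyrimidines, the terminal oligopyrimidine motif, through which the kinase mTORC1 and the RNA-binding protein Larp1 govern their translation, and their transcription follows cell growth. Cells that divide or have been activated, lymphocytes among them, carry more ribosomes than resting cells.

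Promoters of these genes are known for common sequence features, which are shown first because most of the members had a negative difference in the aorta. RefSeq windows of 300 bases (250 before to 50 after the annotated start, GRCm38.p6) were matched for 49 of the 64 genes, with 58 windows. An ETS motif (CCGGAAG, read on both strands) stood in 37.9% of them, against 8.86% of all 32851 windows of that length. A C followed by at least 6 pyrimidines, on the sense strand from 30 bases before to 50 after the start, stood in 74.1% against 33.4%. The GC box (GGGCGG) was in 48.3% against 35.7%, the cyclic AMP response element (TGACGTCA) in 6.90% against 1.79%, the E-box (CACGTG) in 10.3% against 7.15% and the YY1 motif (AAGATGGC) in 3.45% against 2.75%. The TATA box (TATAAA) was in 8.62% against 13.6% and the CCAAT box (CCAAT) in 25.9% against 37.4%, all on both strands. No 1 of these letter strings contains another. Median GC content was 57.2% in the members' windows and 52.7% in all. Of the 7 members of smallest p in the aorta that had 1 window, the 4 whose stretch from 100 bases before to 20 after the start held an ETS motif or the pyrimidine run are printed, 5′ to 3′ in the direction of transcription, with those letters in capitals.
Rps26, GRCm38.p6 chr10:128626487-128626606, minus strand: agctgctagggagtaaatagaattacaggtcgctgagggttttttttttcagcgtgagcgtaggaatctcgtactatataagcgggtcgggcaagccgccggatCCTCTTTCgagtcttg
Rpl7a, GRCm38.p6 chr2:26910707-26910826, plus strand: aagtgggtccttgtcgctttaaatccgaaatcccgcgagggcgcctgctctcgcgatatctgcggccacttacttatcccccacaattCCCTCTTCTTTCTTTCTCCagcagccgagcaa
Rpl6, GRCm38.p6 chr5:121204401-121204520, plus strand: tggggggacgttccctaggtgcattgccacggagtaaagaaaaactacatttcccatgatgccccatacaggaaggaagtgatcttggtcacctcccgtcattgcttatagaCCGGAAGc
Rpl15, GRCm38.p6 chr14:18270967-18271086, minus strand: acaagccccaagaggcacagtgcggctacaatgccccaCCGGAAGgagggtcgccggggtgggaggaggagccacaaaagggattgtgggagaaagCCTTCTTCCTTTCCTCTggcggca
Rpl6 shows the ETS letters just past its annotated start. Rps26 and Rpl7a show a pyrimidine run at or across the start, and Rpl15 shows both. The same stretch of Rps13, Rplp0 and Rps3 held neither. The members with and without the ETS letters had median aortic differences of -0.12 (22 genes) and -0.15 (27 genes). For the pyrimidine run the medians were -0.13 (39 genes) and -0.21 (10 genes). With the GC box the median was -0.23 (25 genes) and without it -0.12 (24 genes). For the CCAAT box the medians were -0.22 (13 genes) and -0.12 (36 genes), so the features did not all go the same way, and none of these differences was tested. A match is a stretch of letters, and binding was not measured.

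The first comparison concerns the loss of the receptor in the aorta. Ribosomal protein genes had lower values in the double-deficient aortas, nearly throughout the list and by small amounts. Of the 64 genes 60 (93.8%) had a negative difference, against 47.2% of all genes, and 4 a positive one, against 52.8%. The median was -0.15 (a 1.11-fold lower signal), with quartiles of -0.28 and -0.07, against 0.0083 over all genes. In limma 0 members passed the adjusted threshold of 0.05 (smallest adjusted p = 0.286), where 1 gene in all, or 0.00451%, was lower past it. At an unadjusted p under 0.05 in limma 19 members (29.7%) were lower, where 3.81% of all genes were, and 0 were higher, where 3.91% of all genes were. The groups did not overlap in 17 members (26.6%), with the double-deficient arrays lower in each, against 2.11% of all genes, and 0 members were without overlap the other way, against 2.19%. Groups without overlap always give the exact two-sided permutation test its smallest p, 0.0286 for 4 against 4 samples. That p is therefore no further result for these 17. Each probe set was centred on its median over the 8 aorta arrays. A probe set without overlap therefore has its groups on opposite sides of 0, and the side is no further result. In bulk tissue, fewer cells rich in these transcripts and less of them per cell cannot be told apart. The receptor's own gene Ltbr differed by -1.64 (SE 0.17, limma adjusted p = 0.0679) in the aorta, in the direction of the labels. In CD115+ cells it differed by -0.72 (SE 0.18, limma adjusted p = 0.976), in the same direction. Ltbr itself thus did not pass the adjusted threshold in either tissue.

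The tilt was present in each array. The mean over the 64 genes was -0.05, -0.08, -0.14 and -0.07 in double-deficient replicates 1 to 4 and 0.11, 0.11, 0.08 and 0.15 in ApoE-deficient replicates 1 to 4. No double-deficient array reached the lowest ApoE-deficient one, replicate 3. Averaged over arrays, the member mean was -0.08 ± 0.04 (SD, n = 4) against 0.11 ± 0.03 (SD, n = 4). Values below 0 were held by 43, 45, 52 and 49 members in the double-deficient and by 10, 17, 27 and 10 in the ApoE-deficient arrays. Because of the centring, more values below 0 in 1 group go with fewer in the other. Double-deficient replicate 3 had the most members below 0, and ApoE-deficient replicate 3 was the least raised of its group. Without ApoE-deficient replicate 3, 24 members were lower at an unadjusted p under 0.05 in limma and the median was -0.18. The share of all genes in that fit was not set beside this count.

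**Figure D1:**
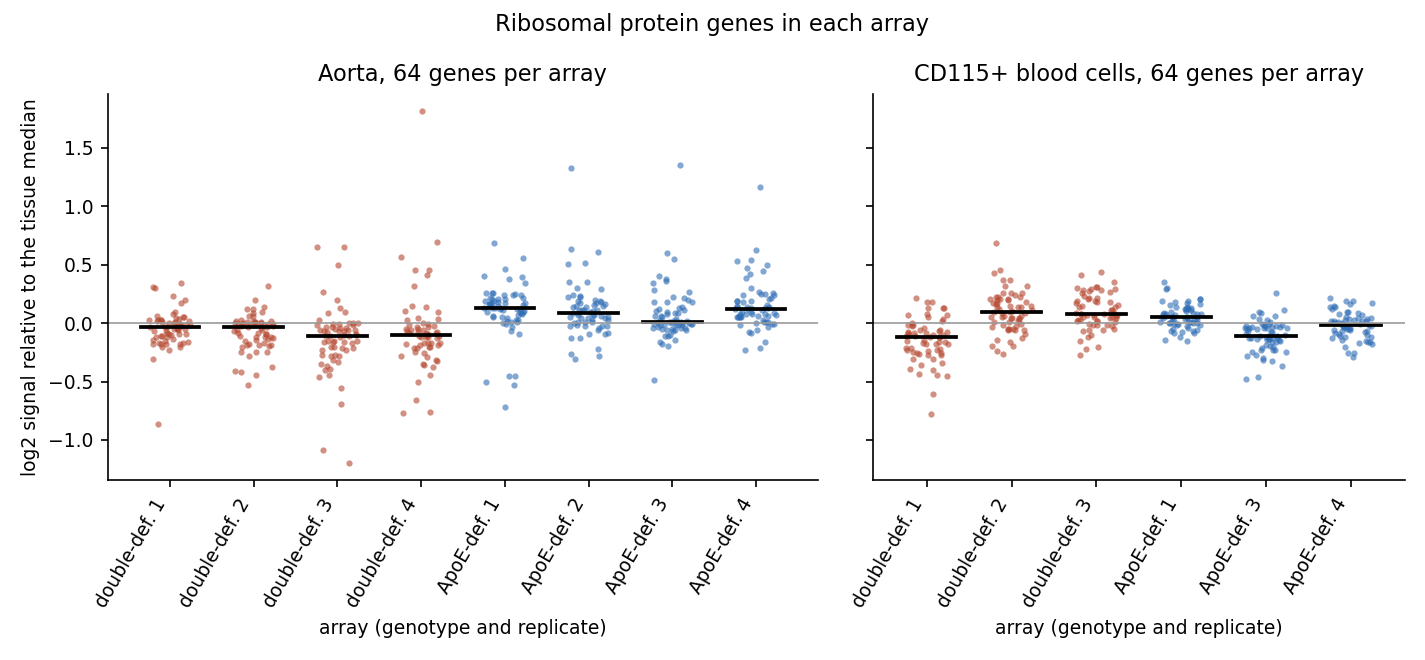
Each point is 1 ribosomal protein gene on 1 array (vertical axis: log2 signal relative to the median of the tissue; horizontal axis: array), with double-deficient arrays in red, ApoE-deficient arrays in blue and the median of the 64 genes as a black bar. In the aorta the 4 double-deficient medians lie below 0 and the 4 ApoE-deficient medians above it, while in CD115+ cells the groups interleave.

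Among small subunit proteins 20 of 22 were negative, with a median of -0.20. At an unadjusted p under 0.05 in limma 8 (36.4%) were lower, against 3.81% of all genes. The clearest was Rps26, which lies at the exit of the messenger RNA channel. It stood at -0.31, -0.12, -0.37 and -0.33 in double-deficient replicates 1 to 4 and at 0.13, 0.22, 0.18 and 0.19 in ApoE-deficient replicates 1 to 4. The ApoE-deficient values were tight, and the groups lay apart by more than the spread of either. The difference was -0.46 (SE 0.07, limma adjusted p = 0.286), a 1.37-fold lower signal. Rps13, a protein at the interface with the large subunit, stood at -0.17, -0.25, -0.12 and -0.21 against 0.16, 0.14, 0.12 and 0.13. Its groups did not overlap, with a difference of -0.33 (SE 0.06, limma adjusted p = 0.296). Rps3, at the entry of the messenger RNA channel, had values of -0.01, -0.09, -0.23 and -0.37 against 0.38, 0.35, 0.01 and 0.25. Its double-deficient replicate 1 and ApoE-deficient replicate 3 came close to each other without overlap, and the difference was -0.43 (SE 0.11). Rps19, the gene most often mutated in Diamond-Blackfan anaemia, stood at -0.12, -0.01, -0.0083 and -0.09 against 0.21, 0.10, 0.18 and 0.21. Here too the groups did not overlap, with a difference of -0.23 (SE 0.06).

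Further small subunit genes lower at an unadjusted p under 0.05 in limma were Rps4x at -0.28 (SE 0.09), Rps10 at -0.26 (SE 0.09), Rps12 at -0.22 (SE 0.09) and Rps7 at -0.95 (SE 0.38). Only Rps4x among these 4 was free of overlap between the groups. Rps7 had the largest difference of all members, but its arrays scattered from -1.09 to 0.02 in double-deficient and from -0.45 to 1.17 in ApoE-deficient samples, so the groups overlapped. Rps14, which is lost in a form of myelodysplastic syndrome with anaemia, differed by -0.24 (SE 0.11). Rpsa, which also serves as a laminin receptor, differed by -0.27 (SE 0.13), and its ApoE-deficient replicate 3 (-0.16) lay inside the double-deficient range. Rps6, the ribosomal substrate of the S6 kinases, differed by -0.07 (SE 0.08), within its spread. Rps23, a protein of the decoding centre, stood at 0.02, 0.12, -0.16 and -0.02 against -0.09, -0.04, 1.35 and 0.63. Its negative difference of -0.47 (SE 0.30) came with high values in ApoE-deficient replicates 3 and 4, while replicates 1 and 2 lay inside the double-deficient range. Rps16 was positive at 0.27 (SE 0.21) and Rps27 at 0.07 (SE 0.58), both with overlapping groups, and Rps27 had the widest double-deficient scatter of the members (-1.20 to 1.81).

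Large subunit proteins were negative in 31 of 32 genes, against 47.2% of all genes, with a median of -0.14. Of these 32 genes 8 were lower at an unadjusted p under 0.05 in limma, against 3.81% of all genes. Rpl7a stood at -0.17, -0.14, -0.11 and -0.06 in double-deficient replicates 1 to 4 and at 0.13, 0.17, 0.20 and 0.13 in ApoE-deficient replicates 1 to 4. The groups did not overlap, with a difference of -0.27 (SE 0.06, limma adjusted p = 0.379). Rpl10a, which forms the mobile stalk at the exit site for transfer RNA, stood at -0.14, -0.11, -0.22 and -0.36 against 0.12, 0.16, 0.11 and 0.14. The ApoE-deficient arrays lay close together, double-deficient replicate 4 was the lowest, and the difference was -0.34 (SE 0.07, limma adjusted p = 0.379). Rpl6 had values of -0.15, -0.13, -0.55 and -0.17 against 0.34, 0.29, 0.13 and 0.44. Double-deficient replicate 3 lay apart from the other double-deficient arrays, yet even the highest of these 4 was below every ApoE-deficient array, and the difference was -0.55 (SE 0.12, limma adjusted p = 0.407). Rpl7 stood at -0.10, -0.09, -0.27 and -0.12 against 0.12, 0.11, 0.22 and 0.05, again with the groups apart, and differed by -0.27 (SE 0.07). Rpl15 stood at -0.06, -0.09, -0.06 and -0.19 against 0.24, 0.15, 0.06 and 0.12 and differed by -0.24 (SE 0.06), with ApoE-deficient replicate 3 the lowest of its group.

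Rpl8, a protein near the site where the peptide bond forms, differed by -0.33 (SE 0.10), Rpl32 by -0.35 (SE 0.11) and Rpl35, beside the exit of the peptide tunnel, by -0.18 (SE 0.06). Of these, Rpl32 had overlapping groups. Rpl23a, at the same tunnel exit, and Rpl28 were without overlap, with small differences of -0.13 (SE 0.06) and -0.10 (SE 0.06). Rpl5 and Rpl11, which with a small ribosomal RNA form the particle that can bind Mdm2 and stabilise p53, differed by -0.12 (SE 0.17) and -0.07 (SE 0.06). The groups overlapped in both genes, and Rpl11 was among the least variable ApoE-deficient members (0.01, 0.03, -0.0054 and 0.0054). Rpl30, Rpl34 and Rpl29 had larger negative differences with wide errors, at -0.46 (SE 0.24), -0.45 (SE 0.28) and -0.34 (SE 0.20). Rpl3, which lines the peptidyl transferase centre, was the 1 positive member of the large subunit at 0.04 (SE 0.17).

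The stalk recruits the translation factors that drive elongation. Its base protein Rplp0 stood at -0.12, -0.19, -0.35 and -0.22 in double-deficient and at 0.69, -0.0014, 0.55 and 0.27 in ApoE-deficient replicates 1 to 4. The groups did not overlap, although ApoE-deficient replicate 2 was far below replicates 1 and 3. Rplp0 differed by -0.59 (SE 0.15, limma adjusted p = 0.461), a 1.51-fold lower signal. Rplp1, 1 of the acidic proteins that sit on Rplp0, stood at -0.18, -0.0061, -0.06 and -0.25 against 0.08, 0.23, 0.10 and 0.0022 and differed by -0.23 (SE 0.08), without overlap. Its partner Rplp2 stood at 0.06, -0.17, 0.65 and 0.14 against -0.46, 0.35, -0.06 and -0.06. The 2 groups overlapped widely, with double-deficient replicate 3 the highest and ApoE-deficient replicate 1 the lowest, and the difference was positive at 0.22 (SE 0.21).

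All 7 paralogs were negative, with a median of -0.11. At an unadjusted p under 0.05 in limma 1 (14.3%) was lower, against 3.81% of all genes. That gene, Rpl6l, stood at -0.15, -0.41, -0.07 and -0.28 against 0.07, 0.52, 0.18 and 0.12 and differed by -0.45 (SE 0.12), close to the difference of Rpl6. Rpl3l, the striated muscle form of Rpl3, stood at -0.86, -0.28, -0.46 and 0.69 against -0.72, 1.33, 0.28 and 0.54 and differed by -0.59 (SE 0.47). Double-deficient replicate 4 was high and ApoE-deficient replicate 1 low, against the direction of the group means. The 10 skeletal muscle markers had array means of -1.10, -1.42, -1.02 and 1.28 across the double-deficient aortas against -1.36, 1.77, 2.01 and 0.77 across the ApoE-deficient ones, and thus were high and low in the same arrays as Rpl3l. Their part in the result was not tested. Rpl10l and Rpl39l, forms found mainly in testis, differed by -0.008 (SE 0.08) and -0.02 (SE 0.15), both near 0, and Rpl39 by -0.20 (SE 0.11). Rps27l, a p53-inducible relative of Rps27, differed by -0.24 (SE 0.12). Rps4l and Rpl32l differed by -0.11 (SE 0.15) and -0.03 (SE 0.06). Outside the symbol rule, Rpl22l1 and Rpl7l1 differed by -0.002 (SE 0.09) and -0.07 (SE 0.16) beside Rpl22 at -0.07 (SE 0.08). Fau, whose product is cleaved into a small subunit protein and a ubiquitin-like one, differed by -0.22 (SE 0.09), lower at an unadjusted p under 0.05 in limma.

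**Figure D2:**
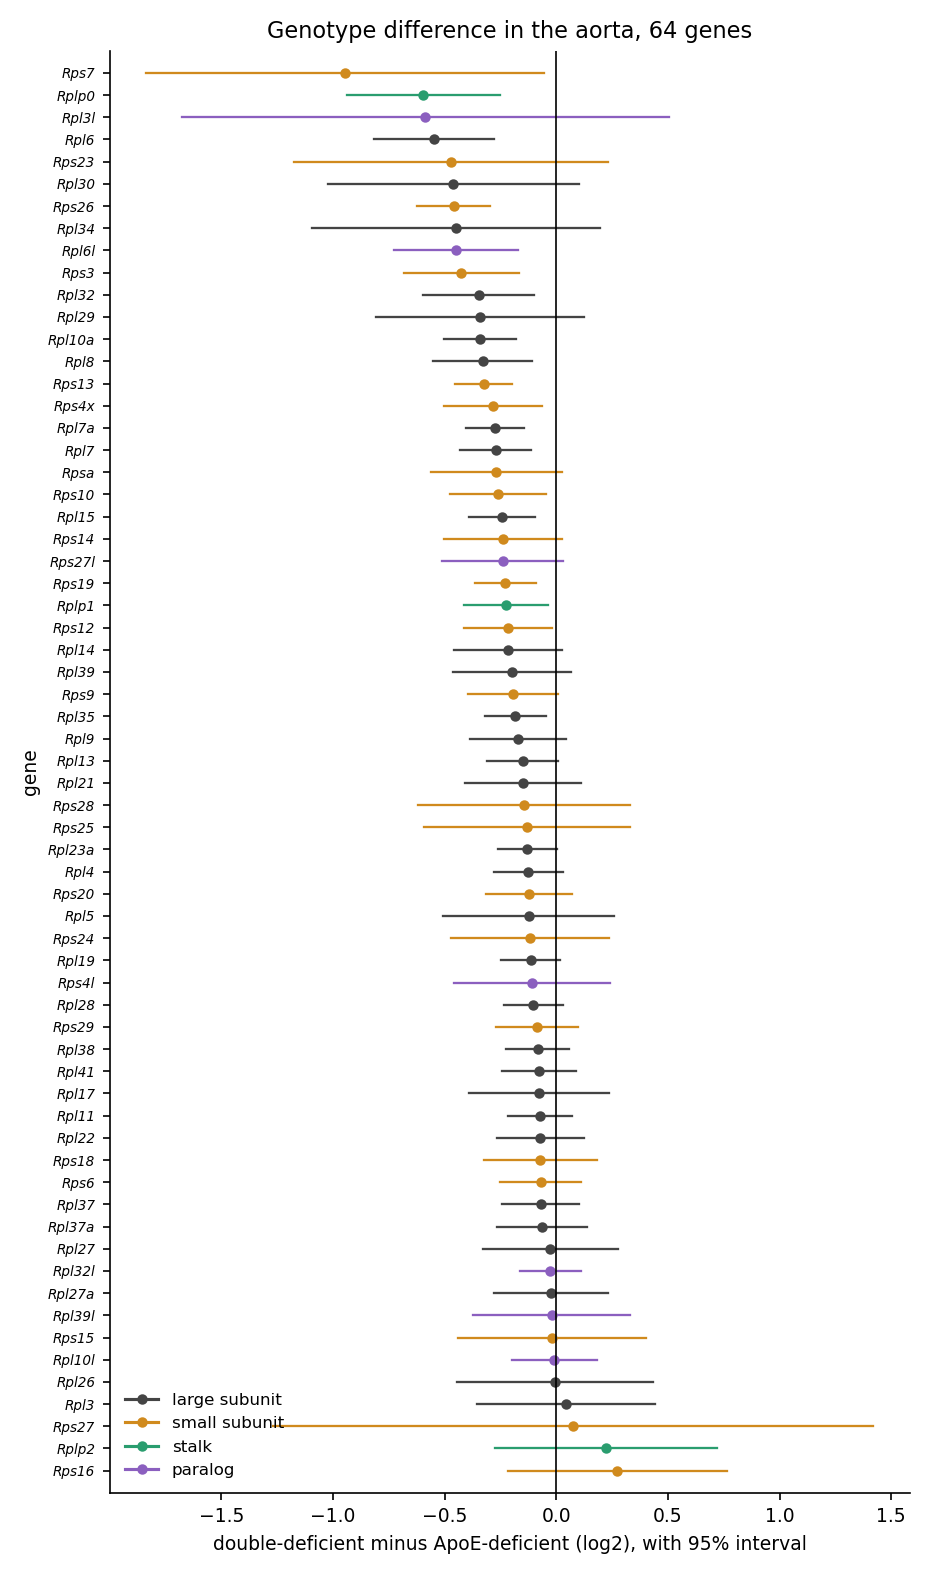
Aortic difference of each of the 64 genes (dot: double-deficient minus ApoE-deficient mean, log2; line: 95% interval from limma), ordered by size and coloured by role. All but Rpl3, Rps27, Rplp2 and Rps16 lie left of 0, from Rps7 at -0.95 to Rpl26 at -0.0046, and the widest interval is that of Rps27.

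Separate probe sets of a gene mostly pointed the same way. Of the 104 probe sets 96 were negative in the aorta, with a median of -0.17. The 8 probe sets of Rps12 lay between -0.23 and -0.17, and the 2 of Rps26 at -0.52 and -0.40. The 2 probe sets of Rplp0 lay at -0.71 and -0.48. In 5 of the 24 genes with several probe sets the signs differed: Rpl27 (-0.25 and 0.19), Rpl3 (-0.20 to 0.49), Rpl9 (-0.41 and 0.07), Rps18 (-0.19 to 0.13) and Rps24 (-0.25 to 0.07). Rps19 ranged from -0.30 to -0.09, so its size depends on the probe set. Members with 1 probe set had a median of -0.13 (37 of 40 negative) and those with several of -0.16 (23 of 24). Ribosomal protein genes have many processed pseudogenes of near-identical sequence, which probes may also detect, and this was not tested. Another 9 genes (Rpl10, Rpl12, Rpl23, Rpl31, Rpl35a, Rpl36, Rps15a, Rps2 and Rps21) stood only on probe sets that list several symbols, and were examined after the values were seen. All 9 were negative in the aorta, with a median of -0.15, and Rpl12 (-0.40, SE 0.10) and Rpl35a (-0.44, SE 0.12) were lower at an unadjusted p under 0.05 in limma.

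The second comparison concerns CD115+ blood cells, which hold the monocytes. There the ribosomal protein genes had no common sign. Of the 64 genes 25 (39.1%) were negative and 39 positive, against 55.3% negative and 44.7% positive among all genes, and the median was 0.04, with quartiles of -0.03 and 0.10. In limma 0 members passed the adjusted threshold (smallest adjusted p = 0.976), as was so for 0.0% of all genes. At an unadjusted p under 0.05 in limma 1 member was lower, against 2.33% of all genes, and 0 were higher, against 2.06%. The groups did not overlap in 1 member (1.56%, lower), against 5.23% of all genes, and in 0 the other way, against 3.93%. Rps24, a small subunit protein, was that member. It stood at -0.07, -0.16 and -0.12 in double-deficient preparations 1 to 3 and at -0.06, 0.06 and 0.10 in ApoE-deficient preparations 1, 3 and 4. The lack of overlap fixed its exact two-sided permutation p at 0.1, the smallest that 3 against 3 samples allow. Its difference was -0.15 (SE 0.06, limma adjusted p = 0.976). It rested on 1 of its 3 probe sets, at -0.59, while the median of the 3 gave -0.0019.

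Positive values of the smallest p were those of Rpl7, Rps27 and Rps10. Rpl7 stood at -0.02, 0.22 and 0.11 against 0.01, -0.04 and -0.07 and differed by 0.14 (SE 0.07). Rps27 stood at -0.17, 0.69 and 0.41 against 0.17, -0.37 and -0.29 and differed by 0.47 (SE 0.26), the largest value of the list. Rps10, at -0.10, 0.26 and 0.17 against 0.10, -0.21 and -0.26, differed by 0.23 (SE 0.14). In all 3 genes double-deficient preparations 2 and 3 were the highest arrays and preparation 1 lay among the ApoE-deficient ones, so the groups overlapped. Rpl19, Rps29 and Rps23 differed by 0.12 (SE 0.08), 0.07 (SE 0.06) and 0.25 (SE 0.21). On the negative side Rps27l stood at 0.08, -0.24 and -0.10 against -0.08, 0.26 and 0.09, with a difference of -0.18 (SE 0.12). Rpl32l differed by -0.16 (SE 0.12) and Rpl26 by -0.08 (SE 0.06), and both also overlapped. The stalk genes Rplp0, Rplp1 and Rplp2 differed by -0.13 (SE 0.13), 0.02 (SE 0.07) and -0.009 (SE 0.08). Rpl5 and Rpl11 differed by -0.04 (SE 0.17) and 0.02 (SE 0.18), and Rps6, Rpsa, Rps19 and Rps14 by 0.06 (SE 0.07), 0.14 (SE 0.16), 0.08 (SE 0.08) and 0.03 (SE 0.09), none beyond its spread.

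Double-deficient preparation 1 stood apart from the others of its group. The mean over the 64 genes was -0.15, 0.10 and 0.10 in double-deficient preparations 1 to 3 and 0.06, -0.11 and -0.02 in ApoE-deficient preparations 1, 3 and 4. The lowest and the highest arrays were therefore both double-deficient. Below 0 were 52, 18 and 15 members in the double-deficient and 18, 55 and 35 in the ApoE-deficient preparations. Without double-deficient preparation 1, 14 members were negative, the median was 0.11, and 13 were higher and 2 lower at an unadjusted p under 0.05 in limma. Without ApoE-deficient preparation 1, which leaves the 2 pools as controls, 16 were negative and 1 was higher. Without both pools, 39 were negative and the median was -0.02. The counts at that p in fits with an array left out were not set beside the share of all genes. The 1 lower member was not counted without double-deficient preparation 2 or without ApoE-deficient preparation 4. The mean over the members thus varied more between preparations of 1 genotype than between the genotype means (0.02 ± 0.14 and -0.02 ± 0.08, SD, n = 3 each). The median SD within groups was 0.16 for members against 0.11 for all genes in CD115+ cells, and 0.15 against 0.19 in the aorta.

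Set side by side, 37 genes were negative in the aorta and positive in CD115+ cells, 23 were negative in both, 2 were positive in both and 2 had the reverse signs. Of the 19 members lower at an unadjusted p under 0.05 in the aorta, 2 were negative in CD115+ cells. The 95% interval of the CD115+ difference included 0 in 63 members, included the aortic value in 40 and lay wholly above it in 23. These counts leave out the error of the aortic value, which the next contrast includes. The difference between the tissues (CD115+ difference minus aortic difference) was positive in 54 of 64 members, against 45.3% of all genes, with a median of 0.21 against -0.02. In limma 0 members passed the adjusted threshold, and 14 (21.9%) were higher in CD115+ cells at an unadjusted p under 0.05, against 3.49% of all genes, with 0 lower against 3.41%. Rpl7 had the smallest p, at 0.41 (SE 0.10), followed by Rpl6 at 0.72 (SE 0.21) and Rps19 at 0.30 (SE 0.09). Rps3 and Rpl6l followed at 0.54 (SE 0.18) and 0.57 (SE 0.19). All 5 had a negative difference in the aorta and a positive one in CD115+ cells, a pattern that picking them by this p favours. The count of 14 moved when single blood preparations were left out. It was 25 without double-deficient preparation 1, 6 and 7 without double-deficient preparations 2 and 3, and 7 and 8 without ApoE-deficient preparations 3 and 4. Without double-deficient preparation 1, Rps26 passed the adjusted threshold (0.85, SE 0.14, limma adjusted p = 0.0454). For these fits, too, the share of all genes was not set beside the counts. The labels do not tie the aortas to the blood samples.

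**Figure D3:**
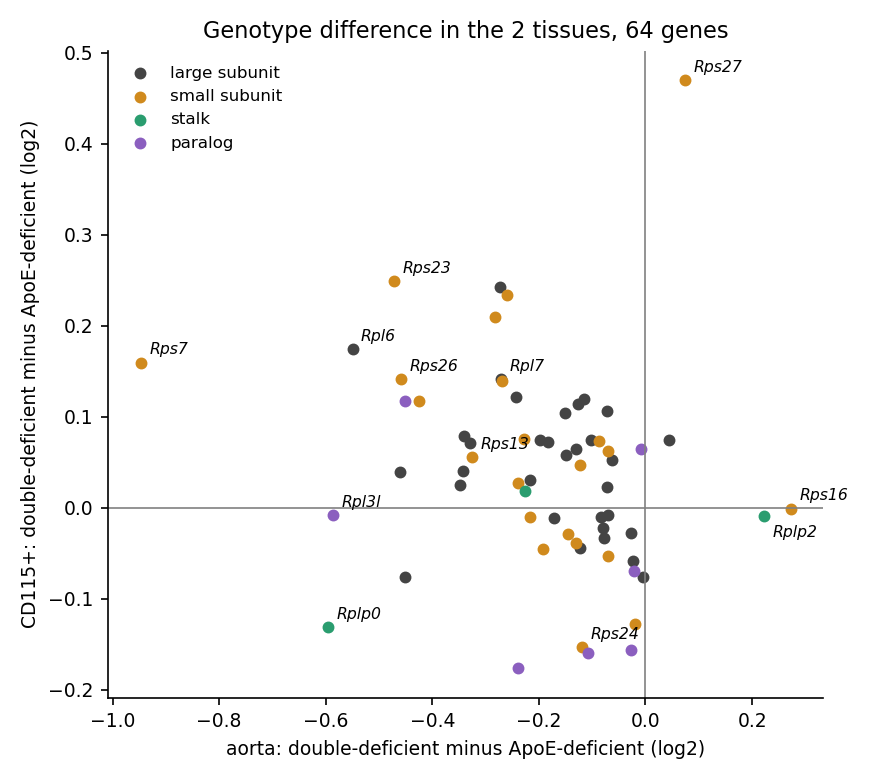
Each point is 1 ribosomal protein gene, with its difference in the aorta on the horizontal axis and in CD115+ cells on the vertical axis (both double-deficient minus ApoE-deficient, log2, coloured by role). Of the 64 points 60 lie left of 0, of which 37 are above and 23 below the horizontal line.

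Other genes of the translation machinery, from lists put together for this work, were set beside the members. Of all genes 47.2% were negative in the aorta, and at an unadjusted p under 0.05 in limma 3.81% were lower and 3.91% higher. Of 17 translation factors and related growth genes with terminal oligopyrimidine starts, 13 were negative in the aorta (median -0.11), and 4 were lower at an unadjusted p under 0.05 in limma. These were Btf3, a subunit of the nascent polypeptide complex, at -0.23 (SE 0.06), Npm1, a nucleolar chaperone, at -0.34 (SE 0.10), and the initiation factor genes Eif3e and Eif3h at -0.28 (SE 0.10) and -0.22 (SE 0.08). Hosts of small nucleolar RNAs, which also begin with such starts, were negative in 6 of 6 (median -0.21), with Zfas1 at -0.60 (SE 0.19) and Snhg1 at -0.50 (SE 0.22). Of 26 ribosome assembly genes 17 were negative (median -0.11) and 4 were lower at that p, among them Nop58 at -0.42 (SE 0.15) and Wdr43 at -0.28 (SE 0.11). Of 12 genes of RNA polymerase I and its factors 8 were negative (median -0.13), and Taf1d was lower at that p at -0.35 (SE 0.15). Among 17 mTOR components and promoter regulators 5 were negative (median 0.09). Myc, a transcription factor that drives ribosome synthesis, was lower at that p at -0.64 (SE 0.22), and Mlst8, a subunit of mTOR complexes, was higher at that p at 0.60 (SE 0.24). Larp1 differed by 0.05 (SE 0.11). Of 9 p53 response genes 4 were negative (median 0.07), and Trp53inp1 was lower at that p at -1.23 (SE 0.19), beside Phlda3 at 0.24 (SE 0.14). In the snoRNA host, polymerase I, mTOR and p53 lists the lower count was 1 gene each (16.7%, 8.33%, 5.88% and 11.1%).

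Mitochondrial ribosomal proteins, encoded in the nucleus but built into a separate ribosome, did not lean the same way. In the aorta 39 of 71 were negative with a median of -0.02, and 1 was lower and 1 higher at an unadjusted p under 0.05 in limma (Mrpl52 at -0.29 (SE 0.11), Mrps12 at 0.72 (SE 0.19)). In CD115+ cells 62 of 71 (87.3%) were negative, against 55.3% of all genes, with a median of -0.11. At that p 5 (7.04%) were lower, against 2.33% of all genes, with Mrps10 at -0.40 (SE 0.05), Mrpl36 at -0.25 (SE 0.06) and Mrpl28 at -0.38 (SE 0.09). Array means of the 71 genes were 0.08, -0.15 and -0.17 in double-deficient preparations 1 to 3. They were 0.01, 0.09 and 0.02 in ApoE-deficient preparations 1, 3 and 4, so double-deficient preparation 1 lay inside the ApoE-deficient range. In the same cells the cytosolic members had a median of 0.04. Translation factors were negative in 3 of 17 there (median 0.11), and 1, the histone chaperone gene Nap1l1, was higher at that p at 0.24 (SE 0.06). Of all genes 2.06% were higher at that p in these cells. Ribosome assembly genes were negative in 8 of 26, and 2 were higher at that p, Wdr43 at 0.33 (SE 0.05) and Nop58 at 0.18 (SE 0.07), both of opposite sign to the aorta. Taf1a was also higher at that p at 0.37 (SE 0.07), and Fau differed by 0.01 (SE 0.11) and Myc by 0.34 (SE 0.25). The difference between tissues was positive in 15 of 17 translation factors (median 0.19), 6 of 6 snoRNA hosts (median 0.41) and 21 of 71 mitochondrial ribosomal proteins (median -0.08).

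**Figure D4:**
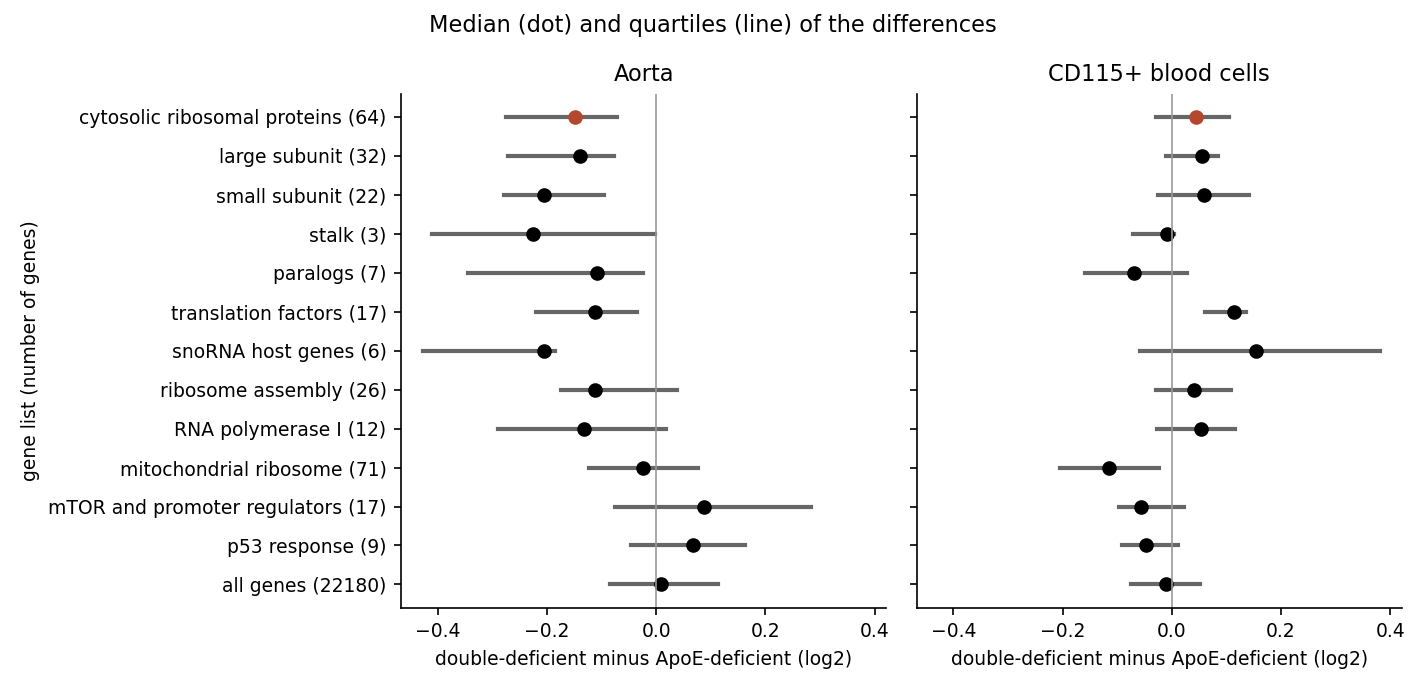
Median (dot) and quartiles (line) of the genotype difference (horizontal axis, double-deficient minus ApoE-deficient, log2) for each gene list (vertical axis, number of genes in brackets) in the 2 tissues. The cytosolic members, in red, have medians of -0.15 in the aorta and 0.04 in CD115+ cells, and all genes medians of 0.0083 and -0.01.

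Markers of lymphocytes also differed in level between the groups. In the aorta all 8 measured T cell markers were negative (median -1.55), with list means of -0.23, -0.44, -0.89 and -1.04 in double-deficient aortas against 1.06, 1.22, 0.09 and 0.68 in ApoE-deficient replicates 1 to 4. All 9 measured B cell markers were negative as well (median -1.72), with means of -0.38, -0.48, -0.14 and -0.26 against 2.28, 2.30, -0.19 and 1.46. ApoE-deficient replicate 3 was inside the double-deficient range for B cell markers, while its member mean of 0.08 was above that of every double-deficient array. The 9 proliferation markers were all negative (median -0.54), with array means from -0.33 to 0.07 in double-deficient and from -0.16 to 0.90 in ApoE-deficient aortas. Smooth muscle markers were positive in 9 of 10 (median 0.30), with array means from -0.06 to 0.43 in double-deficient and from -0.26 to 0.04 in ApoE-deficient aortas. In CD115+ cells the 9 B cell markers were all positive (median 1.44). Their means were -0.31, 1.88 and 1.06 in double-deficient preparations 1 to 3 and 0.31, -0.84 and -0.79 in ApoE-deficient preparations 1, 3 and 4. The 3 arrays with the highest B cell means also had the 3 highest member means. This split was not particular to B cell markers, since the same 3 arrays had the lowest smooth muscle and adipocyte means. In the same order of preparations, smooth muscle means were 0.25, -0.25 and -0.26 against -0.04, 0.17 and 0.05. Adipocyte means were 0.28, -0.31 and -0.25 against -0.07, 0.11 and 0.10. The 8 T cell markers were positive too (median 0.37), with means of 0.05, 0.51 and 0.10 in the same double-deficient preparations against -0.01, -0.19 and -0.26. Double-deficient preparation 1 had a T cell mean above those of all 3 ApoE-deficient preparations, and its member mean of -0.15 was the lowest. Of 10 monocyte markers 6 were negative (median -0.16). Because the values are relative, no marker could be shown to be absent, and the part of these cell types in the result was not tested.

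**Figure D5:**
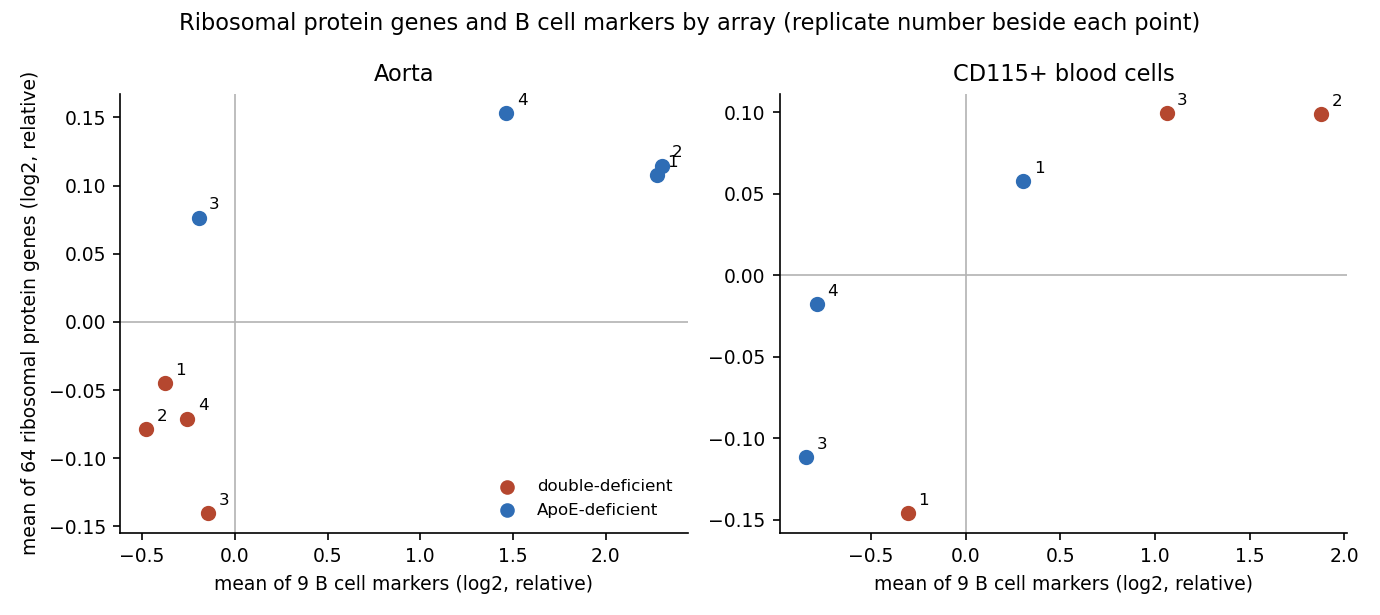
Each point is 1 array, with the mean of 9 B cell markers on the horizontal axis and the mean of the 64 ribosomal protein genes on the vertical axis (log2 relative to the tissue median; red double-deficient, blue ApoE-deficient; numbers are replicates). ApoE-deficient aorta replicate 3 has a B cell mean of -0.19 and a member mean of 0.08, and in CD115+ cells double-deficient preparation 1 has the lowest member mean, -0.15.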

How the data were processed

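RNA of 14 samples (4 groups) was amplified from 1 ng with a whole-transcript kit and biotin-labelled for arrays, per the labels' protocols. The authors deposited log2 values, centred so that the median of each probe set was 0 (within 1e-06) over the 8 aorta and over the 6 CD115+ arrays. The log base was taken as 2; base, normalization and summarisation were not given in the sources used here. Of 33793 probe sets 23521 had 1 gene symbol in the platform annotation, 1814 several and 8458 none; those with 1 symbol were averaged to 22180 genes with no filter on level, since none remains. All 64 members matched the RefSeq gene table by symbol.

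Within a tissue the test was limma's (version 3.58.1, R 4.3.3; lmFit, eBayes, two-sided, Benjamini-Hochberg over all genes), the difference between tissues in 1 fit of the 4 groups, and single members also with an exact permutation test. The script was tested on simulated data. Members, gene lists and tests were chosen with earlier results of these data known. Named were Ltbr, the 10 members of smallest p and the 3 of opposite sign in each tissue, members of fixed roles, paralogs, the 5 members of smallest p between tissues, members whose probe sets differ in sign, and up to 3 genes per other list. Others were named after their values were seen. Alternatives varied the block, replicates, eBayes settings, array weights, normalization, probe set choice and membership. The main fits did not pair samples by replicate number. Correlations of same-numbered arrays, given below, cannot settle whether the numbers pair the samples.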

Additional observations from a re-analysis of the deposited data

Results flagged for a closer look

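The 64 members and their mean gave 130 groups of 4 aortic values. In 6 of them, 1 array lay far from the other 3; chance gives about 1 in 20, or 6.5. Rpl6, a large subunit protein, stood at -0.55 in double-deficient replicate 3, and at -0.17 to -0.13 in the other double-deficient arrays. Rpl39, at the peptide tunnel exit, stood at -0.18 in double-deficient replicate 1, and at -0.02 to 0.0061 in the others. Rpl17 stood at 0.41 in double-deficient replicate 4, and at -0.14 to -0.05 in the others of that group. Rpl27 stood at 0.32 in double-deficient replicate 2, and at -0.18 to -0.10 in the others. In the small subunit Rps20 stood at 0.10 in double-deficient replicate 1, against -0.11 to -0.07. The paralog Rpl10l stood at 0.21 in ApoE-deficient replicate 1, and at -0.03 to 0.0064 in the others.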

How the results depend on the processing

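The 4 array groups are small, and small differences of single members lie below what 8 or 6 arrays resolve. In the aorta, leaving out 1 array gave 55 to 59 negative members, 16 to 24 lower at an unadjusted p under 0.05 in limma, 0 higher, 0 past the adjusted threshold and medians of -0.19 to -0.14. In CD115+ cells it gave 14 to 32 negative, 0 to 2 lower, 0 to 13 higher, 0 past the adjusted threshold and medians of -0.0004 to 0.11. Between tissues it gave 7 to 13 negative, 0 to 1 past the adjusted threshold, 0 to 1 lower, 6 to 25 higher and medians of 0.16 to 0.29. These counts stand without the share of all genes in the same fits. The 1 lower CD115+ member became 0 with the replicate block, with quantile normalization, with the median of probe sets and with 1 fit of the 4 groups. Array weights gave 16 negative and 3 higher CD115+ members, the probe set of largest SD gave 1 higher, and leaving out both pools gave 39 negative. With the replicate number as a block, 3 members were higher between tissues, where 14 were without it. Double-deficient preparation 2 and ApoE-deficient preparation 4 have no partner of the same number. With the block, the CD115+ difference therefore rests on preparations 1 and 3 alone. The same block left 60 negative and 19 lower in the aorta, and same-numbered arrays had correlations of -0.15 to 0.17 there and of -0.47 and -0.29 in CD115+ cells. The CD115+ median of 0.04 changed sign without both pools (-0.02) and without double-deficient preparation 2 (-0.0004). In each tissue 1 named gene changed sign (3 of 234 values in the aorta, 1 of 170 in CD115+ cells). Adding the 9 genes of several-symbol probe sets, chosen after seeing the data, gave 69 negative of 73 in the aorta. The cause of these changes was not tested.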
